A study of Arabidopsis thaliana with 4 samples.

Results

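A set of 10 regulators of light and shade signalling were followed in RNA sequencing of Arabidopsis thaliana that overexpressed the transcription factor gene TEM1. They were the phytochrome-interacting factor genes PIF1, PIF3, PIF4, PIF5 and PIF7, the bZIP genes HY5 and HYH, the bHLH genes HFR1 and PIL1, and the homeodomain gene ATHB2. They were picked by locus identifier, 10 of the 32678 loci listed, by a rule that uses no expression value, although earlier results of these data were known when it was written. Whole plants of 2 genotypes were compared: 35S:TEM1, in which the strong and broadly active 35S promoter drives TEM1 (2 samples), and wild type (WT, 2 samples). Every sample was a pool of 20 plants that were 10 days old, kept at 22 °C under LD, with harvest at ZT18, and no further treatment is given. The labels do not say how many transgenic lines or growth rounds the pools came from, so the p-values speak only of the spread between pools. TEM1 is known as a repressor of flowering, and the series title places it in salt tolerance, hormone pathways and photoprotection.

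Phytochromes, the receptors of red and far-red light, enter the nucleus in their active form and cause the PIF proteins to be inactivated or degraded. PIF proteins promote elongation in darkness and in shade, and they bind G-box (CACGTG) and related elements of their target genes. HY5 and its relative HYH act in the opposite direction: they promote seedling greening and photomorphogenesis in light, and the COP1/SPA ubiquitin ligase removes them in darkness. HFR1 and PIL1 belong to the same wider bHLH family as the PIFs, are induced by shade and dampen the PIF response, and ATHB2 encodes a homeodomain-leucine zipper protein that is among the earliest transcripts to rise in shade.

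The values are RPKM, read numbers divided by gene length and by library size, on which levels of different genes can be set side by side. The libraries held 20183817 to 30425737 reads, and 3 reads in a gene of 1 kb correspond to an RPKM of 0.099 to 0.149. TEM1 itself (AT1G25560) had an RPKM of 784 and 827 in the 35S:TEM1 pools, against 16.3 and 30.3 in the WT pools, with reads of the transgene and of the native gene counted together. Fold changes are differences of log2(RPKM + 1), 35S:TEM1 minus WT, with the standard error (SE) from limma, and the threshold for a call, higher or lower, is an adjusted p of 0.05 after Benjamini-Hochberg. Of 17746 tested genes, those with a mean RPKM of at least 1, 18.3% were called higher and 7.37% lower. The median fold change of all tested genes was 0.12, and -0.03 when every sample was given the same median. Values after that scaling are therefore given beside the main ones for the 7 tested genes of the 10, and for some others. In whole plants, fewer cells of a type and less RNA per cell cannot be told apart.

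Among the 10 genes, PIF3, HY5 and HYH rose in 35S:TEM1, while PIF5, PIF7, ATHB2 and PIF1 did not pass the test. PIL1, HFR1 and PIF4 lay under the limit of a mean RPKM of 1 and were not tested. Of the 7 tested genes 3 were called higher (42.9%) and 0 lower, beside 18.3% and 7.37% of all tested genes, and their median fold change was 0.16. With equal sample medians 1 of the 7 was called higher (PIF3) and 1 lower (PIF1), beside 10.6% and 13.5% of all tested genes. Both 35S:TEM1 samples lay above both WT samples in 3 of the 7 and below them in 3, so the groups did not overlap in 6 of 7 genes. The same was true of 47.4% (above), 20.7% (below) and 68.0% (either) of all tested genes.

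**Figure D1:**
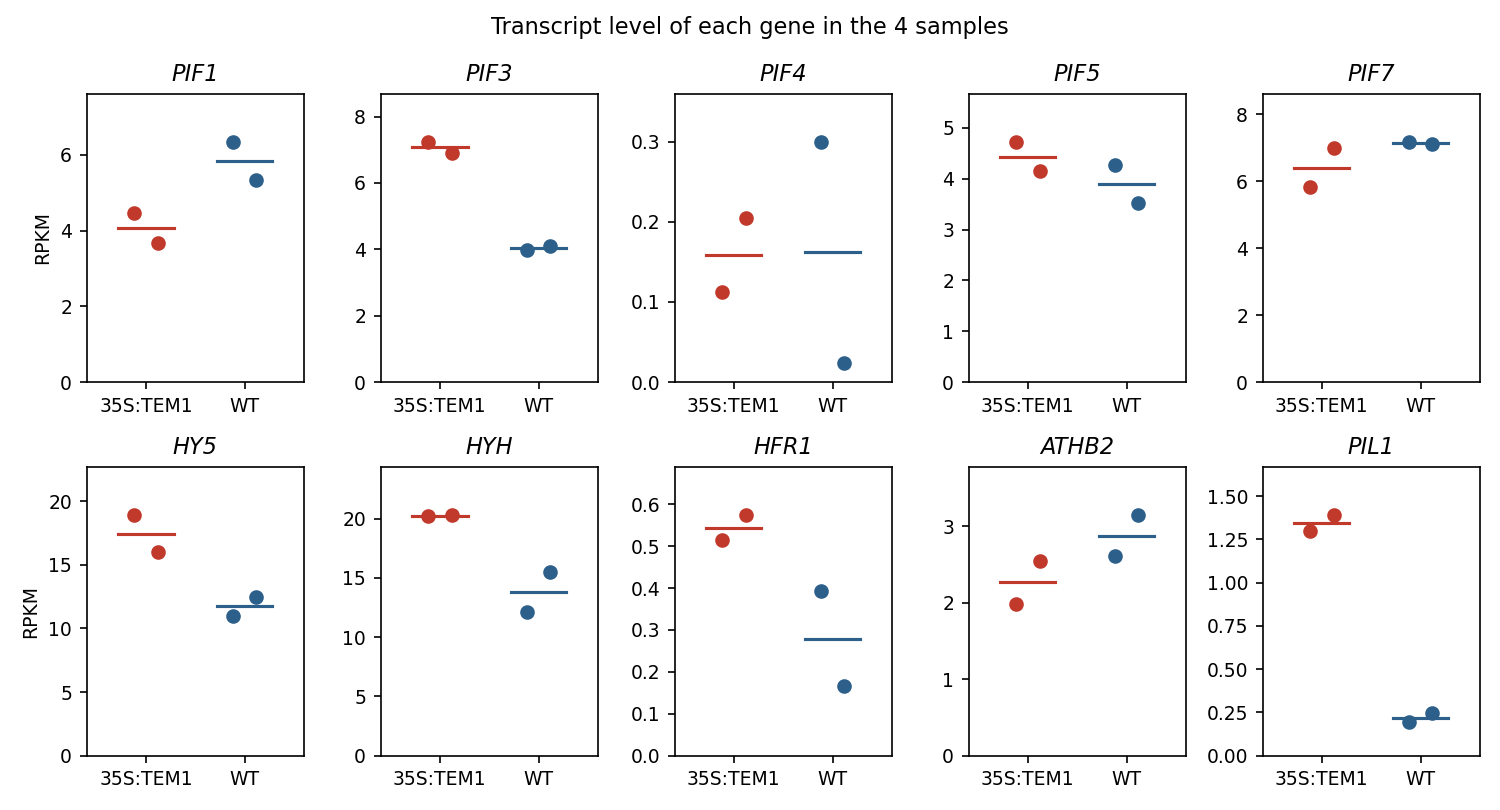
Transcript level (RPKM, linear axes from 0) of each of the 10 genes in the 2 samples of 35S:TEM1 (left, red) and of WT (right, blue), with points for samples and lines for means. The groups are apart in every panel but those of PIF4 and PIF5, with 35S:TEM1 above WT for PIF3, HY5, HYH, HFR1 and PIL1 and below it for PIF1, PIF7 and ATHB2.

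Among the PIF genes, PIF3 rose, and PIF1 had lower values that did not pass the test as deposited. PIF3 (AT1G09530), which acts in red light signalling and in the control of greening, had an RPKM of 7.25 and 6.90 in the 35S:TEM1 pools (295 and 387 reads), against 3.99 and 4.09 in the WT pools (245 and 199 reads). Both 35S:TEM1 samples lay well above the WT samples, and replicates differed little. The means of 7.07 ± 0.24 and 4.04 ± 0.07 (SD, n = 2 each) gave a 1.75-fold difference and a log2 fold change of 0.68 ± 0.10 SE (limma adjusted p = 0.00641). PIF3 was also called higher with equal sample medians (0.53 ± 0.09, adjusted p = 0.0149). Without 35S:TEM1 replicate 1 its fold change was 0.65 and the adjusted p was 0.052.

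PIF1 (AT2G20180), the member known for holding back seed germination and chlorophyll synthesis in darkness, had values on the other side of WT. Its RPKM was 4.47 and 3.66 in the 35S:TEM1 pools (179 and 202 reads), against 6.34 and 5.32 in the WT pools (383 and 255 reads). The groups did not overlap, but the spread within each was wider than for PIF3. The log2 fold change of -0.43 ± 0.14 did not pass the test as deposited (limma adjusted p = 0.063), with a 95% interval of the difference from -0.76 to -0.10 before adjustment for the number of genes. It was called lower with equal sample medians (-0.58 ± 0.13, adjusted p = 0.0279) and with quantile normalization (-0.60, adjusted p = 0.0307), which take up the general shift between the genotypes and call 13.5% and 10.5% of all tested genes lower. It was also called lower in voom fits on recovered reads, added after the data were seen, with the same filter (7.95%) and without it (7.24%).

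The ratio of PIF3 to PIF1 within a sample does not change when all RPKM values of that sample are multiplied by the same factor. It was 1.62 and 1.88 in the 35S:TEM1 pools, against 0.629 and 0.768 in the WT pools, so PIF3 was the more abundant of the pair in both 35S:TEM1 samples and PIF1 in both WT samples. This ratio was chosen after the values were seen. An exact permutation test of 2 against 2 samples gave a two-sided p of 0.333, the smallest it can give.

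PIF7 and PIF5 did not pass the test. PIF7 (AT5G61270), the main driver of elongation in shade, had an RPKM of 5.83 and 6.97 in the 35S:TEM1 pools and of 7.18 and 7.10 in the WT pools. Its log2 fold change of -0.14 ± 0.11 did not pass (limma adjusted p = 0.396), with a 95% interval from -0.42 to 0.14. With equal sample medians it was -0.29 ± 0.12 (limma adjusted p = 0.134). PIF5 (AT3G59060), which acts in daily growth rhythms and in shade, had 4.73 and 4.14 in the 35S:TEM1 pools and 4.26 and 3.52 in the WT pools, and here the groups overlapped. Its log2 fold change was 0.16 ± 0.13 (adjusted p = 0.413, interval from -0.16 to 0.47), and 0.01 with equal sample medians. Of the exon bases of PIF7 16.3% lie under exons of AT5G61260 on the opposite strand, whose RPKM was 0.731 and 0.796 in the 35S:TEM1 pools and 0.529 and 0.50 in the WT pools. For PIF1 that share is 5.7%, with AT2G20170 listed at 0 in every sample.

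PIF4 (AT2G43010), a regulator of growth in warmth and shade, was close to the floor of 3 reads in some samples of both genotypes. It had 4 and 10 reads in 35S:TEM1 and 16 and 1 in WT, an RPKM of 0.113 and 0.205 against 0.300 and 0.0236. The WT samples alone spanned the values of 35S:TEM1, and no difference was detectable at this depth. The ratio of the pooled reads per library total was 0.936, with an exact 95% interval from 0.427 to 2.02 that covers counting error only.

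Summed over PIF1, PIF3, PIF4, PIF5 and PIF7, the RPKM was 22.4 and 21.9 in the 35S:TEM1 pools and 22.1 and 20.1 in the WT pools (exact permutation test, two-sided p = 0.667). PIF3 made up 32.4% and 31.5% of that sum in the 35S:TEM1 pools and 18.1% and 20.4% in the WT pools. PIF1 made up 20.0% and 16.7% in the 35S:TEM1 pools and 28.7% and 26.6% in the WT pools. PIF7 made up 26% and 31.9% in the 35S:TEM1 pools and 32.5% and 35.4% in the WT pools. The sum of the 5 genes overlapped between genotypes, as did the PIF4 and PIF5 shares, while those of PIF3, PIF1 and PIF7 did not. For each of these 3 shares the exact permutation test gave a two-sided p of 0.333, the smallest it can give. With the related gene UNE10, also called PIF8, the sum was 94.3 and 105 in the 35S:TEM1 pools and 48.8 and 48.5 in the WT pools, and the groups were apart.

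**Figure D2:**
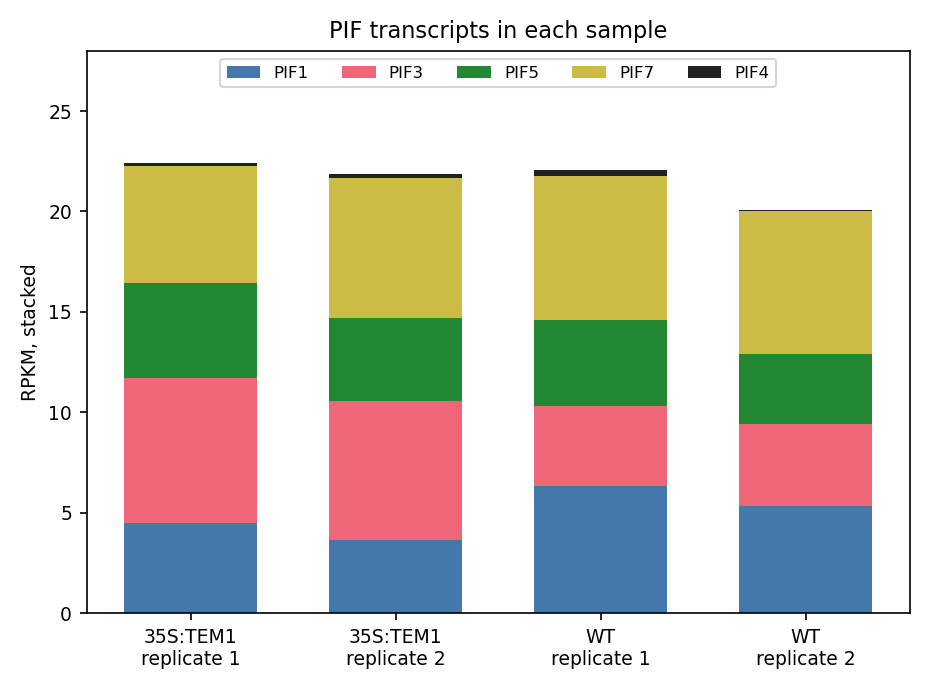
RPKM of PIF1, PIF3, PIF5, PIF7 and PIF4 stacked for each of the 4 samples, 35S:TEM1 on the left and WT on the right. The bars reach 22.4, 21.9, 22.1 and 20.1. The PIF3 part is taller and the PIF1 and PIF7 parts are shorter in the 35S:TEM1 samples, and PIF4 is a thin strip in each.

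HY5 and HYH, the pair of bZIP genes, rose together. HY5 (AT5G11260) had an RPKM of 18.9 and 16.0 in the 35S:TEM1 pools (344 and 401 reads), against 11.0 and 12.4 in the WT pools (302 and 271 reads). HYH (AT3G17609) had 20.2 and 20.3 in the 35S:TEM1 pools (302 and 418 reads), against 12.2 and 15.5 in the WT pools (274 and 277 reads). For both genes the lower 35S:TEM1 sample lay above the higher WT sample. HY5 was 1.49-fold higher (log2 fold change 0.53 ± 0.12, limma adjusted p = 0.0212) and HYH 1.46-fold higher (0.53 ± 0.12, adjusted p = 0.0269). The ratio of HYH to HY5 was 1.07 and 1.27 in the 35S:TEM1 pools and 1.10 and 1.24 in the WT pools, with a mean of 1.17 in each genotype (SD 0.142 in 35S:TEM1 and 0.0989 in WT, n = 2 each).

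The calls of HY5 and HYH rested on the scaling and on single samples. With equal sample medians the fold changes were 0.38 and 0.38 (adjusted p = 0.0532 for HY5 and 0.0777 for HYH), and with quantile normalization they were 0.39 and 0.39 (adjusted p = 0.0587 for HY5 and 0.0806 for HYH). HY5 also lost its call without 35S:TEM1 replicate 1 (0.42, adjusted p = 0.133) and without WT replicate 1 (0.45, adjusted p = 0.052). HYH lost its call without 35S:TEM1 replicate 1 (0.53, adjusted p = 0.116), without 35S:TEM1 replicate 2 (0.53, adjusted p = 0.109) and with genes of low level kept in (adjusted p = 0.0505).

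**Figure D3:**
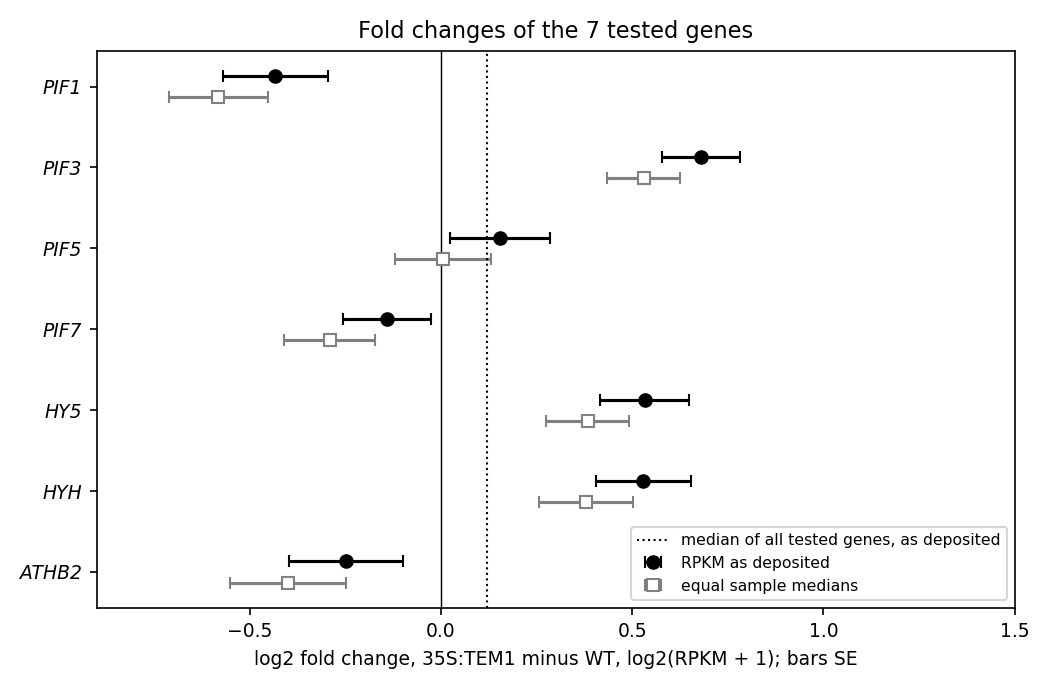
Log2 fold change (35S:TEM1 minus WT, log2(RPKM + 1), bars SE from limma) of the 7 tested genes, with RPKM as deposited (filled) and after all samples were given the same median (open). The dotted line marks the median of all tested genes, 0.12, and PIF3, HY5 and HYH lie to its right under both scalings.

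PIL1 (AT2G46970), a bHLH gene induced quickly by shade, showed the largest ratio of the 10 genes. It had an RPKM of 1.299 and 1.39 in the 35S:TEM1 pools, against 0.194 and 0.244 in the WT pools. In reads, these were 40 and 59 in the 35S:TEM1 pools against 9 and 9 in the WT pools. The replicates agreed closely within each genotype, and the means of 1.34 ± 0.06 and 0.219 ± 0.036 (SD, n = 2 each) differed 6.14-fold. The ratio of pooled reads per library total was 6.25, with an exact 95% interval from 3.76 to 11.0 for counting error only. Because its mean RPKM over the 4 samples was 0.782, PIL1 was not tested at the main settings. With no filter on low values its log2 fold change was 0.94 ± 0.08 (limma adjusted p = 0.00551), where 12.5% of 24315 genes were called higher. A voom fit on the recovered reads, added after the data were seen, gave 2.59 ± 0.39 (adjusted p = 0.00292), where 19.2% of 21297 genes were called higher.

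HFR1 (AT1G02340), an atypical bHLH gene whose protein binds PIFs and keeps them from DNA, had 13 and 20 reads in the 35S:TEM1 pools and 15 and 5 in the WT pools. The RPKM was 0.514 and 0.574 in the 35S:TEM1 pools, against 0.393 and 0.165 in the WT pools, so the groups were apart but WT spread widely. The ratio of pooled reads per library total was 1.88, with an interval from 1.05 to 3.45, and HFR1 was not called with no filter (limma adjusted p = 0.141) or with voom (adjusted p = 0.190). ATHB2 (AT4G16780), the shade-induced homeodomain gene, had 1.99 and 2.55 in the 35S:TEM1 pools, against 2.61 and 3.15 in the WT pools. Its log2 fold change of -0.25 ± 0.15 did not pass (limma adjusted p = 0.258, interval from -0.61 to 0.11). With equal sample medians it was -0.40 ± 0.15 (limma adjusted p = 0.115). Of the 3 shade-induced genes, PIL1 and HFR1 thus had a higher RPKM and ATHB2 a lower one in both 35S:TEM1 samples, and the difference between their responses was not tested.

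By level, HYH and HY5 were the most abundant of the 10 in both genotypes. In 35S:TEM1 they were followed by PIF3, PIF7, PIF5, PIF1, ATHB2, PIL1, HFR1 and PIF4, and the sample ranges of the neighbours PIF3 and PIF7, and of PIF5 and PIF1, overlapped. In WT the order after HYH and HY5 was PIF7, PIF1, PIF3, PIF5, ATHB2, HFR1, PIL1 and PIF4. There the ranges of HYH and HY5, of PIF3 and PIF5, of HFR1 and PIL1, and of PIL1 and PIF4 overlapped. PIF3 stood in the place behind HY5 in 35S:TEM1 and behind PIF1 in WT.

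The stretch of 250 bases before the annotated gene start was read for each of the 10 genes from the RefSeq TAIR10.1 genome. The G-box is known to be bound by PIF and HY5 proteins, and the PBE-box by PIF proteins. Elements other than the 4 motifs given here were not counted. On both strands, the G-box CACGTG occurred in 1 of the 10 windows (PIF5), and in 6.49% of 27443 protein-coding genes. The PBE-box CACATG occurred in 1 of the 10 (HY5), and in 11.1% of all. The motif CAACA, which RAV proteins such as TEM1 are known to bind, occurred in 4 of the 10 (PIF4, PIF5, HFR1 and ATHB2) and in 47.4% of all. The companion RAV motif CACCTG occurred in 0 of the 10 and in 2.57% of all. No motif contains another, each was counted on its own so that matches may overlap, and a match describes letters and not binding.

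The windows of HY5 and HYH, which rose together, and of PIL1, with the largest ratio, are shown from 5′ to 3′ along the gene's strand. Capitals mark the PBE-box, read here as its reverse complement, whose first base lies 138 bases before the start of HY5. The windows are chr5:3595074-3595323 on the minus strand for HY5, chr3:6023594-6023843 on the plus strand for HYH and chr2:19297859-19298108 on the minus strand for PIL1, all in TAIR10.1.
HY5: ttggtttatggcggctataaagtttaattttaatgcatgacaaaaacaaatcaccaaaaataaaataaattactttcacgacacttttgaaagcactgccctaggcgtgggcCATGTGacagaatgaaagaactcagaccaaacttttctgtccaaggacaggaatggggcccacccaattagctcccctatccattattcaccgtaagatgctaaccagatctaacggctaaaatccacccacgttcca
HYH: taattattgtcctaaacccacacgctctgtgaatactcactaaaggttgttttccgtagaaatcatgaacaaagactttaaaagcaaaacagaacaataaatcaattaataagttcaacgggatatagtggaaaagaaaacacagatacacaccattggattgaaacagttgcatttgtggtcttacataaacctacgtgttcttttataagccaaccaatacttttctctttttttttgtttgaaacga
PIL1: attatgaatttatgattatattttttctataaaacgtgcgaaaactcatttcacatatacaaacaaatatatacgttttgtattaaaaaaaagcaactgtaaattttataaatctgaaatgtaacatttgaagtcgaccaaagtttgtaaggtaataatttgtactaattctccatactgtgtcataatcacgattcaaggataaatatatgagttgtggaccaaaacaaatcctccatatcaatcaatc
The HYH and PIL1 windows held neither the G-box nor the PBE-box.

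The wider pathway was read from 8 lists of 73 genes, of which 56 were tested. Of these, 14 rose (25.0%), 4 fell (7.14%) and 38 did not pass, beside 18.3% and 7.37% of all tested genes. The median fold change was 0.18. The 14 included the PIF or shade target genes IAA29, YUC2 and CKX5, which had a WT mean under an RPKM of 1. These 3 were tested because of their level in 35S:TEM1, so nothing is read from the count of 14. Once every sample had the same median, 7 of the 56 tested genes rose and 5 fell. That scaling called 10.6% of all tested genes higher and 13.5% lower. Without the filter on low values 16 of all 73 rose, beside 12.5% of all genes. Markers of other cell types moved in the same samples. The summed RPKM of 11 root cell markers was 60.9 and 68.35 in the 35S:TEM1 pools, against 31.1 and 33.4 in the WT pools, with RHD6 listed at 0 in WT replicate 1. Such sums weigh abundant genes most. SCR alone had 29.8 and 30.6 in the 35S:TEM1 pools, against 18.4 and 17.5 in the WT pools. With no filter on low values 9 of the 11 were called higher, beside 12.5% of all genes. At the main settings all 8 tested ones were called higher, but 4 of them (CASP2, PRP3, WOX5 and EXPA7) had a WT mean under an RPKM of 1 and were tested because of their level in 35S:TEM1, so nothing is read from that count. Of 10 leaf epidermis and guard cell markers 4 fell (40%) and 0 rose (median -0.34), beside 7.37% and 18.3% of all tested genes. Their summed RPKM was 419 and 438 in the 35S:TEM1 pools, against 661 and 557 in the WT pools. PDF1 alone had 178 and 205 in the 35S:TEM1 pools, against 308 and 279 in the WT pools. Of 6 markers of leaf photosynthetic cells 1 rose and 1 fell (16.7% each, median -0.19), beside 18.3% and 7.37% of all tested genes. Their sum was 33850 and 37510 in the 35S:TEM1 pools, against 42810 and 42960 in the WT pools. RBCS1A alone had 18714 and 22702 in the 35S:TEM1 pools, against 24583 and 25557 in the WT pools. GLK1 and GLK2 had higher values in both 35S:TEM1 samples. The part of cell composition in the values of the light regulators was not tested.

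Among the other shade regulators, 3 of 9 tested genes rose (33.3%), 1 fell (11.1%) and 5 did not pass (median 0.33). Of all tested genes 18.3% were called higher and 7.37% lower. UNE10, or PIF8, was more abundant than PIF1, PIF3, PIF4, PIF5, PIF6 and PIF7. It had 71.9 and 83.0 in the 35S:TEM1 pools, against 26.7 and 28.4 in the WT pools (log2 fold change 1.45 ± 0.10, limma adjusted p = 0.000515). The homeodomain genes ATHB4 and HAT3, relatives of ATHB2 that act in shade and in leaf polarity, rose as well. ATHB4 had 6.78 and 5.56 in the 35S:TEM1 pools, against 2.40 and 2.21 in the WT pools (1.11 ± 0.13, adjusted p = 0.00284). HAT3 had 21.4 and 16.2 in the 35S:TEM1 pools, against 9.59 and 8.58 in the WT pools (0.96 ± 0.14, adjusted p = 0.00641). PAR2, an atypical bHLH gene that restrains the shade response, fell to 5.37 and 4.93 in the 35S:TEM1 pools, against 13.1 and 9.04 in the WT pools (-0.95 ± 0.17, adjusted p = 0.0113). PIF6, named after its values were seen, was under the expression limit and not part of the PIF sums. It had 0.522 and 0.498 in the 35S:TEM1 pools, against 0.856 and 1.03 in the WT pools. With no filter PIF6 was not called (limma adjusted p = 0.0517), and 88.9% of its exon bases lie under opposite-strand exons. The calls of UNE10, ATHB4 and HAT3 held in every setting tried for them, and that of PAR2 in all but one (without 35S:TEM1 replicate 2, adjusted p = 0.0534).

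Of 11 genes known to be induced by PIFs or shade, 6 were called higher with no filter on low values, beside 12.5% of all genes. At the main settings 5 of them were tested, and IAA29, YUC2 and CKX5 rose, also with equal sample medians, while 2 did not pass. The 3 called genes had a WT mean under an RPKM of 1 and were tested because of their level in 35S:TEM1, so nothing is read from their count among the 5, and with a limit of a mean RPKM of 5 the 2 genes left were not called. IAA29, an auxin response repressor gene, had 3.06 and 2.76 in the 35S:TEM1 pools, against 0.864 and 0.461 in the WT pools (1.24 ± 0.17, limma adjusted p = 0.00451). YUC2, a gene of auxin synthesis, had 2.39 and 2.36 in the 35S:TEM1 pools, against 0.945 and 0.966 in the WT pools (0.79 ± 0.13, adjusted p = 0.009), and CKX5, which encodes a cytokinin-degrading enzyme, had 1.67 and 1.95 in the 35S:TEM1 pools, against 0.579 and 0.608 in the WT pools (0.82 ± 0.15, adjusted p = 0.0112). YUC2 was not called when 35S:TEM1 replicate 1 or 2 was left out, nor CKX5 without 35S:TEM1 replicate 2, with adjusted p up to 0.0573 and 0.074. At such low levels the pseudocount of 1 holds fold changes down: with 0.1 the log2 fold change was 2.03 for IAA29, 1.23 for YUC2 and 1.46 for CKX5, and all 3 were called. The remaining 6 genes of this list were under the expression limit, and in 5 of them both 35S:TEM1 samples lay above both WT samples, as they did in 31.6% of the loci with such low values. One of these, named after its values were seen, was SOM, a germination regulator known as a PIF1 target, with 24 and 31 reads in 35S:TEM1 and 4 and 7 in WT (ratio of pooled reads per library total 5.685, exact 95% interval from 2.94 to 12.05). Of the exon bases of CKX5 20.7% lie under exons of other genes on the opposite strand.

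Upstream, of 12 tested photoreceptor and transport genes 2 rose (16.7%, beside 18.3% of all tested genes) and 0 fell (median 0.15). The phytochrome genes PHYE (0.41 ± 0.10, limma adjusted p = 0.029) and PHYB (0.33 ± 0.08, adjusted p = 0.0304) were called higher. With equal sample medians 0 genes of this list were called by limma, 1 having an unadjusted p under 0.05. Voom on the recovered reads called 3 of the 12 higher, beside 3629 of 17731 genes. PHYB had 26.8 and 26.8 in the 35S:TEM1 pools, against 20.8 and 21.5 in the WT pools. Of 10 genes of the COP1/SPA complex and of other degradation 3 rose (30%) and 1 fell (10%), beside 18.3% and 7.37% of all tested genes (median 0.22). LRB1, a ubiquitin ligase gene that acts on PIF3 and phyB, rose by 0.51 ± 0.12, DET1 by 0.39 ± 0.10 and SPA4 by 0.36 ± 0.09, and with equal sample medians 0 of these rises were called. None of the 5 genes PHYE, PHYB, LRB1, DET1 and SPA4 was called with quantile normalization or without 35S:TEM1 replicate 1 or 2 (adjusted p of 0.0608 to 0.216 without 1 of these samples). Without WT replicate 1 PHYB, DET1 and SPA4 were not called (adjusted p up to 0.085), nor were PHYE, LRB1 and SPA4 without WT replicate 2 (up to 0.085), and with no filter PHYE, DET1 and SPA4 were not (up to 0.0548). RUP2, a repressor of the UV-B receptor, fell to 4.43 and 5.92 in the 35S:TEM1 pools, against 8.19 and 7.92 in the WT pools (-0.56 ± 0.14, adjusted p = 0.0314), which did not pass without 35S:TEM1 replicate 1, nor without WT replicate 1 or 2, nor when genes of low level were kept in (adjusted p = 0.0652). DET1 was also not called by limma without the mean-variance trend. COP1 had 16.3 and 14.9 in the 35S:TEM1 pools and 14.1 and 13.5 in the WT pools (0.16, limma adjusted p = 0.240).

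Of the evening complex, which represses PIF4 and PIF5 in the early night, LUX fell while ELF3 and ELF4 did not pass. LUX had 1.90 and 1.56 in the 35S:TEM1 pools, against 3.98 and 3.63 in the WT pools (log2 fold change -0.82 ± 0.13, limma adjusted p = 0.00804), a call that held in every setting tried for it. ELF3 had 0.22 ± 0.09 (adjusted p = 0.112) and ELF4 had 0.29 ± 0.10 (adjusted p = 0.0873). Of the exon bases of LUX 17.8% lie under exons of AT3G46650 on the opposite strand.

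Of 7 tested B-box genes, whose proteins work with or against HY5, BBX20 rose and 6 did not pass (median 0.17). The share called higher was 14.3%, beside 18.3% of all tested genes. BBX20 had 7.80 and 12.1 in the 35S:TEM1 pools, against 3.79 and 4.78 in the WT pools (1.03 ± 0.20, limma adjusted p = 0.0158), and was not called without 35S:TEM1 replicate 2 (adjusted p = 0.0511). Of 4 tested flavonoid genes that HY5 is known to activate, 0 were called at the main settings of limma (median 0.08), and 1 had an unadjusted p under 0.05. Voom on the recovered reads called 1 higher, beside 3629 of 17731 genes. Among these CHS, the entry enzyme of the pathway, had 305 and 350 in the 35S:TEM1 pools and 309 and 340 in the WT pools (0.01 ± 0.10, adjusted p = 0.931). MYB12 and F3H, under the expression limit, are named after their values were seen. With no filter MYB12 was called higher (limma adjusted p = 0.0182), with 56 pooled reads in 35S:TEM1 and 19 in WT. F3H was called lower (adjusted p = 0.0347), with 2 and 20 reads. Over all 24315 genes 12.5% were called higher, and 1144 genes lower. Of the exon bases of F3H 93.8% lie under exons of AT3G51238 on the opposite strand.

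A further list held chlorophyll and carotenoid genes, chosen for the roles of PIF1 and PIF3 in darkness. Of its 6 tested genes 2 rose, 1 fell and 3 did not pass. The median was 0.07, and the shares called were 33.3% higher and 16.7% lower, beside 18.3% and 7.37% of all tested genes. HEMA1, the first committed enzyme gene of tetrapyrrole synthesis, fell to 83.9 and 80.3 in the 35S:TEM1 pools, against 129.6 and 114.9 in the WT pools (-0.57 ± 0.09, limma adjusted p = 0.00737), and it was not called without 35S:TEM1 replicate 2 (adjusted p = 0.0554). GUN4, a regulator of the same pathway (0.41 ± 0.10), and PORB, a protochlorophyllide reductase gene (0.39 ± 0.10), were called higher at the main settings and with quantile normalization (0.425 and 0.53), and not with equal sample medians (0.26 and 0.24). Neither was called without 35S:TEM1 replicate 1 or 2 or WT replicate 2 (adjusted p of 0.0558 to 0.192), and PORB was not called with no filter (adjusted p = 0.0744). Limma without the mean-variance trend called neither GUN4 nor PORB. Of the exon bases of GUN4 73.0% lie under exons of AT3G59410 on the opposite strand, so its level is uncertain.

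**Figure D4:**
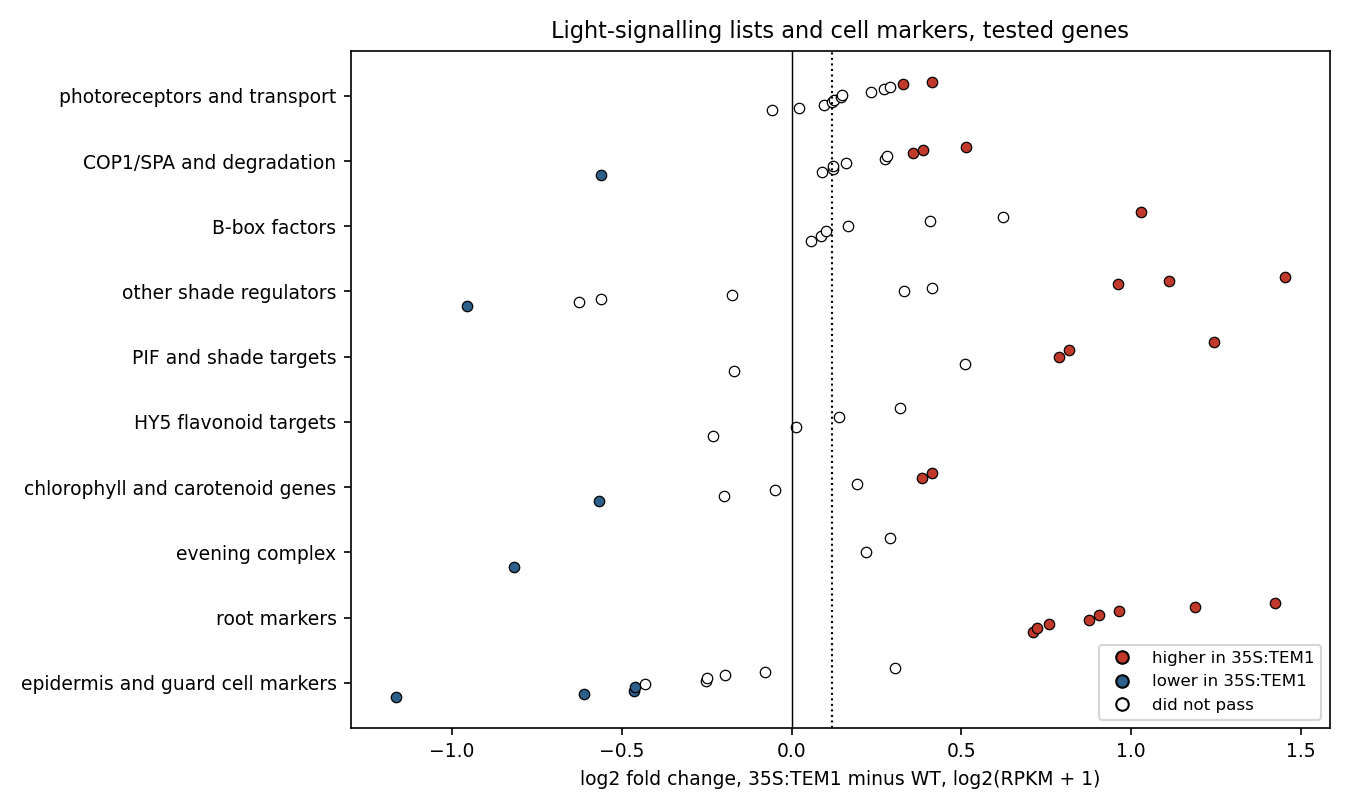
Log2 fold change (35S:TEM1 minus WT, log2(RPKM + 1)) of each tested gene of the 8 light-signalling lists and of root and leaf epidermis markers, with red for genes called higher, blue for genes called lower and white for genes that did not pass; the dotted line is the median of all tested genes, 0.12. Called genes of the shade regulators and of the PIF and shade targets lie between -0.955 (PAR2) and 1.45. The 8 tested of 11 root markers lie to the right of 0.5. All 3 called targets and 4 of the root markers were tested because of their level in 35S:TEM1, so nothing is read from their counts.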

How the data were processed

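The deposited table gives 1 RPKM value per locus and sample, computed by the authors. Per the submitters' processing notes, STAR, Cuffdiff 2.2.1, FastQC, bcl2fastq 1.8.4 and the TAIR10 build were used, in roles that are not stated. The counting step, gene models and strand setting were not given in the sources used here. Where strands were not told apart, reads in overlapping exons cannot be assigned to 1 gene, and how such reads were counted is not known. All value columns belong to the 4 samples.

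Within a locus the RPKM values, once scaled by library, were whole multiples of 1 step, from which whole reads were recovered for 99.9% of 23004 loci with values above 0 in at least 2 samples. Of their values 100.0% came out whole within 0.05 of a read. The library totals that scaled the RPKM were 20183817 and 27807143 reads for 35S:TEM1 replicates 1 and 2, and 30425737 and 24140725 reads for WT replicates 1 and 2. The gene lengths implied for the 10 genes, 741 to 2074 bases, were shorter than the joined RefSeq exons, and the cause was not tested.

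Values were tested as log2(RPKM + 1) with limma 3.58.1 in R 4.3.3 (mean-variance trend, two-sided, Benjamini-Hochberg over 17746 genes with a mean RPKM of at least 1), in a fit tested on simulated data. RefSeq held 31912 of the loci (97.7%) and all 10 genes. Alternatives changed the pseudocount, the filter, the scaling, the variance model, the replicate block or left out 1 sample, and voom fits on recovered reads were added after the data were seen. The 10 genes and the lists were chosen with earlier results of these data known. From each pathway list up to 4 called genes per direction with the smallest adjusted p are named, and every gene of lists of 3; others named are marked or serve as values beside them. Intervals of pooled read ratios and floors cover counting error only, while intervals of log2 fold changes come from the limma fit.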

Additional observations from a re-analysis of the deposited data

How the results depend on the processing

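Across the alternatives the 3 genes called higher (PIF3, HY5 and HYH) became 1 under equal sample medians, 1 under quantile normalization, and 0 to 3 when 1 sample was left out, with 0 without 35S:TEM1 replicate 1. The 0 genes called lower became 1 (PIF1) with equal sample medians, quantile normalization, the replicate block and both voom fits on recovered reads, and with limma at the main settings 1 gene was lower at an unadjusted p under 0.05. Over all genes, 3255 higher and 1308 lower became 1884 and 2388 with equal sample medians, and the higher genes were 2021 with quantile normalization. Leaving out 1 sample gave 1331 to 2955 higher and 545 to 1417 lower. The 14 higher genes of the pathway lists became 7 (equal sample medians) and 9 (quantile normalization), and 5 to 12 when 1 sample was left out. PIF5 turned to -0.021 with quantile normalization (adjusted p = 0.925); the cause of these changes was not tested. Samples with the same replicate number deviated alike (correlation across genes 0.318, from 2 pairs), but the labels do not say that the number marks a shared batch. With the replicate block, 4321 genes were higher and 1801 lower, and of the 10 genes 3 were higher and 1 lower. PIL1, not tested at the main settings, had a difference of 0.94, which became 2.18 and 1.77 with pseudocounts of 0.1 and 0.25. Depth limits PIF4 and HFR1, at 31 and 53 reads over the 4 samples.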
